A study of Mus musculus with 42 samples.

Results

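Cytosolic ribosomal proteins are the protein subunits of the ribosomes that translate nuclear-encoded mRNA. They were read here across normal mouse skin and chemically induced skin tumours. A probe was taken as a member if its annotated symbol began with Rpl or Rps and a digit, or was Rpsa, Rplp0, Rplp1 or Rplp2. Rps6k kinases, pseudogenes and the -like paralogues were left out. The rule found 70 of the 19667 genes named on either of the study's 2 array designs, read by 180 of 58921 probes. Of these, 63 genes were on the first design (67 probes), 67 on the second (113 probes) and 60 on both.

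The large subunit binds transfer RNA and forms peptide bonds, and the small subunit reads the message. Each subunit is built on ribosomal RNA in the nucleolus, needs its proteins in about equal numbers, and is then exported to the cytoplasm. The mRNAs of these proteins belong to the TOP class, whose 5′ ends carry a run of pyrimidines through which growth signalling by mTOR sets their translation. Keratinocytes that divide in the basal layer, or under a tumour promoter, make many ribosomes, and ribosomal protein mRNAs are among the most abundant in any cell.

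Samples were whole tissue pieces. Papillomas and squamous cell carcinomas came from adult female Sencar mice, a strain bred for sensitivity to skin carcinogens, initiated at 7-8 weeks and treated with DMBA, which mutates DNA, and TPA, which promotes growth. For the carcinomas and 1 papilloma of the second design the labels give many weeks of treatment. Papillomas were labelled as low or high risk, names that refer to how likely such lesions are to progress, and the normal skin was untreated adult skin whose strain and sex the labels do not give. The first design held 6 normal skins, 10 low-risk arrays, 10 high-risk papillomas and 6 carcinomas. A second design held 10 papillomas labelled only as unknown. The array titled Low Risk-3 carries the tumour code of low-risk papilloma 1 and was taken as its dye swap, so 31 replicates entered the fits. The array titled Low Risk-10 names Low Risk-3 as its source, and this conflict in the labels was not settled. The codes of high-risk papillomas 1 and 2, 3 and 5, and 6 and 10, and of low-risk papillomas 2 and 8, share a number, and nothing in the labels says that tumours came from separate mice. The p-values therefore measure the spread between these samples.

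Every value is a log2 ratio of the sample to a universal mouse reference RNA, centred on the array's median, so 0 is the level of the array's middle probe. The direction, sample over reference, is likely and not stated. It rests on 19 skin genes, whose median was 0.63 to 4.16 on the arrays with the sample in Cy3, and 23 genes of internal organs, whose median was -1.28 to -0.03. On the dye-swapped array of low-risk papilloma 1, turned the other way, these medians were 2.34 and -0.06. Keratinocyte markers, 11 of 13 measured, had means over the list of 0.78 to 1.66 in normal skin, 0.85 to 2.66 in low-risk papillomas, 0.83 to 2.44 in high-risk papillomas and 0.25 to 1.15 in carcinomas. The direction was itself read from skin genes, so these positive levels are no separate check of the tissue label. If the direction were the reverse, every level and difference here would change its sign. In pieces of whole tissue, fewer cells of a type and less RNA per cell cannot be told apart.

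Some facts about the arrays touch every result. The arrays were clustered by which probes were left empty and cut into 5 sets, here A to E, a number chosen as a setting. The sets were not spread evenly over the groups. Of the 6 normal skins, 4 were in set A, with a single tumour beside them, 1 was in set C and 1 in set D. Low-risk arrays made up all 7 of set B and lay 3 in set D. High-risk papillomas made up all 4 of set E, and 4 more were in set C, 1 in set D and 1 in set A. Carcinomas lay 4 in set D and 2 in set C. Deposited values were spread unequally, from a median SD over arrays of 0.70 in set C to 1.59 in set E. Normal skin 1 and carcinoma 6 were nearly the same array in values (r = 0.98 over 16718 probes, median absolute difference 0.065, against 0.18 for the next closest pair). Counts of called members without that pair are given where they change.

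Promoters are shown for 5 members that carry the differences from normal skin described below. RefSeq windows of 300 bases (GRCm38.p6), 250 before the annotated start and 50 from it on, were found for 56 of the 70 genes. Each line holds 100 bases, 70 before the start and 30 from it on, read 5′ to 3′ on the gene's strand. Capitals mark CGGAAG, which holds the core of the sites of ETS-family factors, on either strand (reverse complement CTTCCG). The stretches of Rpl27a and Rps13 hold none.
Rpl41, chr10:128549139-128549238, minus strand: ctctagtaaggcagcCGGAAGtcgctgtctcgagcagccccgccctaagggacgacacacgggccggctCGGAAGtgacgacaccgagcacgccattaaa
Rpl27a, chr7:109519125-109519224, plus strand: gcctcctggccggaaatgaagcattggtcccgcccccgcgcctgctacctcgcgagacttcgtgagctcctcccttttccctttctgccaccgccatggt
Rpl24, chr16:55966205-55966304, plus strand: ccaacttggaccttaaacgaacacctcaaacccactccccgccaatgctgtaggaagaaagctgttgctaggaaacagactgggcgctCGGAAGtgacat
Rpl39, chrX:37085193-37085292, minus strand: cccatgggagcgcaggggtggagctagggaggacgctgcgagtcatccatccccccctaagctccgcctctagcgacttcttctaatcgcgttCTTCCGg
Rps13, chr7:116334161-116334260, minus strand: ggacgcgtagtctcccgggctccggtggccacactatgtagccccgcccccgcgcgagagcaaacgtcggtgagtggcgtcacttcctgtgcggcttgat
CGGAAG lay in 42 of the 66 windows of ribosomal protein genes (63.6%) and in 16.9% of all 32851 windows. CTTTCC, a stretch of the pyrimidine kind found at the starts of these genes, or its reverse complement GGAAAG lay in 48.5% of the members' windows and 26.6% of all. Within 20 bases of the start on either side, CTTTCC was in 13.6% of the members' windows and 3.68% of all. Of the 11 genes called against normal skin in either papilloma group, 9 had CGGAAG in their window, as had 33 of the 55 windows of other members. For CTTTCC or GGAAAG these numbers were 5 of 11 and 27 of 55, and near the start 0 of 11 and 9 of 55. No test was made of this, and a match is a string of letters, not a binding site.

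Ribosomal protein probes stood above the array's middle in nearly every sample. On the 32 labelled arrays a median of 95.7% of the measured members had a ratio above 0 (range 46.8% to 100%), while centring on the median puts the array's middle probe at 0. With the ratio turned these members would lie below 0 instead, and the order of the genes would be the reverse. Of the 63 genes on the first design, 62 had a median above 0 over the labelled replicates. The exception was Rpl22, an RNA-binding large subunit protein that cells can lose without stopping translation, at -0.32 (22 replicates).

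The family's median differed from sample to sample, and the groups overlapped. In normal skin the median over the members was lowest at 0.17, in the middle at 0.44 and highest at 0.85 (6 replicates). Low-risk papillomas ran from 0.39 over 0.71 to 1.67 (9 replicates), high-risk papillomas from 0.53 over 1.17 to 1.90 (10 replicates), and carcinomas from 0.38 over 0.70 to 1.17 (6 replicates). Of the 10 high-risk papillomas, 7 lay above the highest normal skin, as did 4 of the 9 low-risk papillomas and 1 of the 6 carcinomas. All 10 high-risk papillomas, 7 low-risk papillomas and 5 carcinomas lay above the median of the normal skins.

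The array set moved with these levels. The 4 normal skins of set A had medians of 0.17, 0.24, 0.41 and 0.47, while normal skin 2 in set D had 0.72 and normal skin 1 in set C 0.85. The 4 high-risk papillomas of set E had 1.25, 1.28, 1.67 and 1.90, above 1.09, the highest of the 4 in set C. High-risk papilloma 10, the tumour that shared set A with 4 skins, had 1.35. The part of the array set in the differences between groups was not tested beyond the values given with each comparison.

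**Figure D1:**
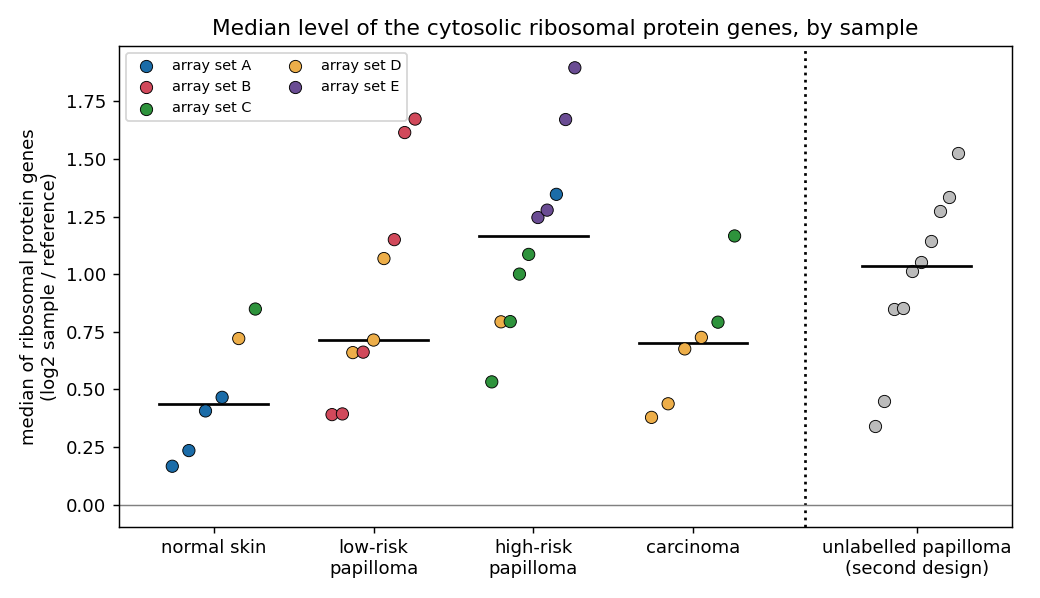
Median log2 ratio to the reference over the ribosomal protein genes for each sample (points), by group, coloured by array set; horizontal bars are group medians, and the grey points right of the dotted line are the 10 unlabelled papillomas on the second design, which was normalized apart. High-risk papillomas run from 0.53 to 1.90 and normal skins from 0.17 to 0.85, and the 4 lowest normal skins are those of set A.

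Ranks within the array, which the spread of an array does not touch, gave a like order at the ends. The members' median percentile among all probes was 72.5 in normal skin (61.2 to 92.99), 85.1 in low-risk papillomas (60.7 to 94.5), 92.99 in high-risk papillomas (85.0 to 96.0) and 87.5 in carcinomas (71.7 to 96.7). By rank the carcinomas' median thus lay above that of the low-risk papillomas, whereas by log2 ratio it lay just below. The ranks moved with the array set too. In set C normal skin 1 was at 92.99, the carcinomas at 95.2 and 96.7 and the high-risk papillomas at 92.9 to 96.0. The skins of set A were at 61.2 to 73.0, and the part of the set in the ranks was not tested. The 2 arrays of low-risk papilloma 1 stood far apart: the members' median was -0.22 with the sample in Cy3 and 1.14 with the dyes swapped, and the arrays correlated at 0.31 over probes. Their mean was used for probes measured on both, and the single value otherwise.

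The members also moved together from sample to sample. Over 1648 pairs of the 58 tested genes with enough shared replicates, the median Pearson correlation was 0.48 (quartiles 0.31 and 0.64), and 1565 pairs were above 0. With each group's mean removed it was 0.43, and after scaling the arrays to one spread 0.51. All genes share the same 31 replicates, with the scale and labelling of each array, so no p is given. Rpl11 (0.91 with the median of the other members), Rpl21 (0.91) and Rpl14 (0.90) followed the family most closely. Rpl37 (-0.20), Rpl15 (0.22) and Rpl12 (0.28) followed it least.

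Among large subunit genes, Rpl35, which sits at the exit of the peptide tunnel, had the highest median of the tested members, 1.93 (range 0.24 to 2.75 over 31 replicates). Rpl5, which with Rpl11 and 5S rRNA forms the particle that restrains Mdm2 when ribosome assembly fails, had a median of 1.45 and lay above 0 in all 31 replicates. Rpl13 was low and even, at 0.24 (SD 0.48). The largest spreads were those of Rpl12 (SD 1.55), part of the stalk base, and Rpl37 (SD 1.48), and in both a single sample stood far from the others, at 7.80 and 6.74. The 6.74 of Rpl37 is the value of the Cy3 array of low-risk papilloma 1 alone. These ratios compare each gene with its own level in the reference RNA, so they do not rank the genes by mRNA amount.

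Among small subunit genes, Rps4x, the X-linked copy of an essential core protein, had a median of 1.87 with an SD of 0.47 over 31 replicates. Rps6, the protein that S6 kinases phosphorylate, had a median of 1.42 and was above 0 in all 31. Rpsa, also known as the laminin receptor, was the lowest of this subunit at 0.06. Rps3a1 had the largest spread of the small subunit (SD 0.86). Of the stalk proteins, which recruit elongation factors, Rplp1 varied least of all members (SD 0.35), with medians of 0.26 for Rplp1, 0.39 for Rplp0 and 0.68 for Rplp2.

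**Figure D2:**
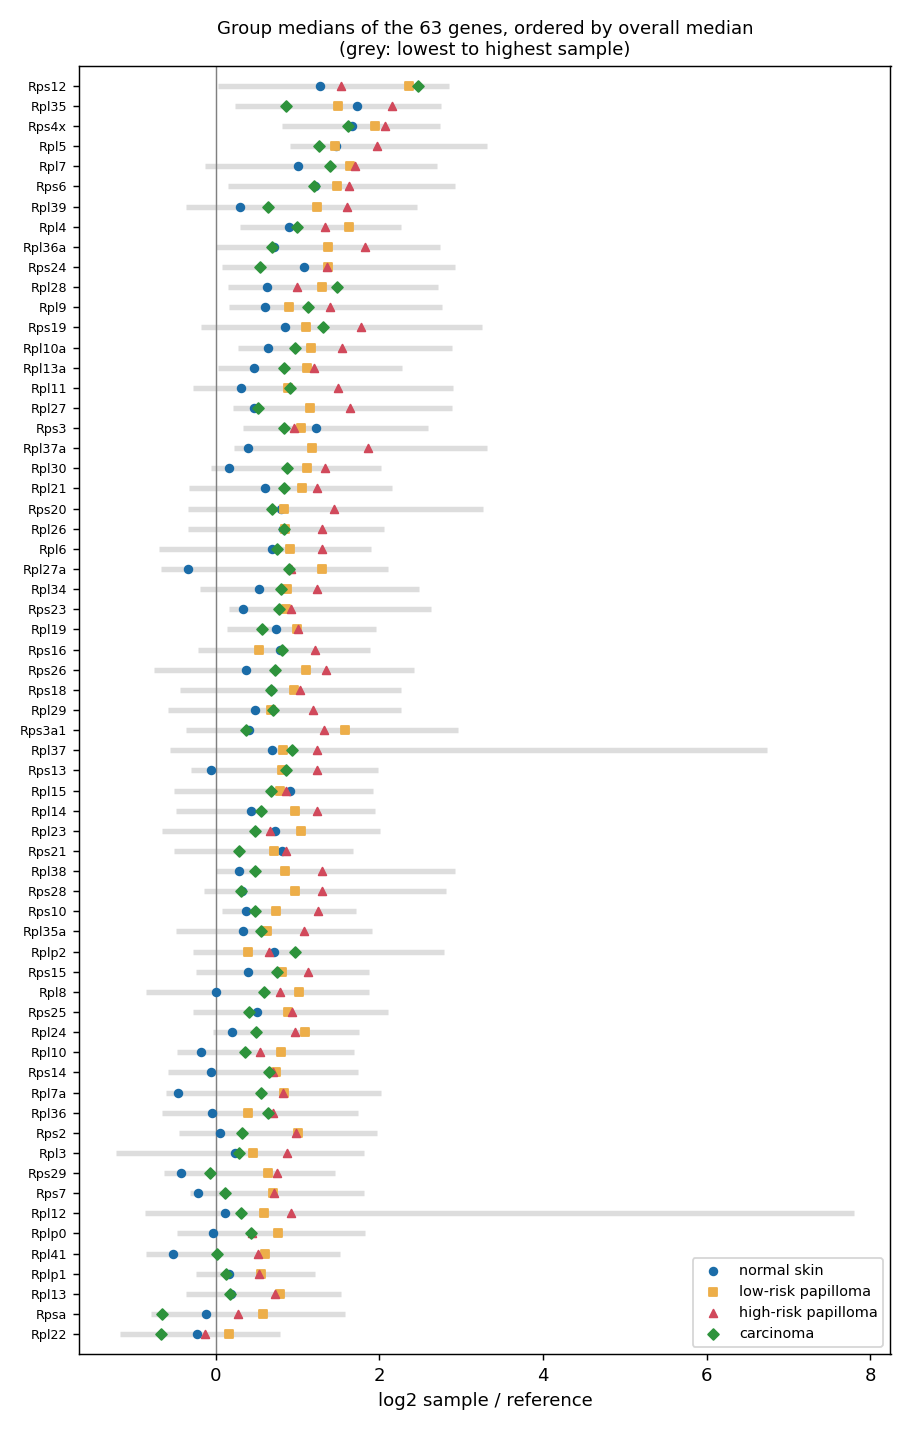
Median log2 ratio to the reference of each of the 63 genes on the first design in the 4 labelled groups (symbols), ordered by the median over all labelled replicates; grey bars run from the lowest to the highest replicate. Rpl22 is at the bottom at -0.32, Rpl35 at 1.93 is the highest tested gene, and the long bars of Rpl12 and Rpl37 each end in 1 sample.

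Of the 63 genes, 58 had values in enough replicates to be tested, 38 of the large subunit, stalk included, and 20 of the small. Rpl10a (26 values), Rpl37a (15), Rps10 (22), Rps12 (19) and Rps3 (23) did not. Rps3, a small subunit protein at the mRNA entry that also acts in DNA repair, ran from 0.34 to 2.59 with a median of 1.03 in the 23 replicates that measured it, 2 of them normal skins. Rps12 had the highest median of the family, 1.96 over 19 replicates. Limma fits over all 18904 probes gave the differences between groups below, and adjusted p-values are Benjamini-Hochberg values over those probes.

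Low-risk papillomas against normal skin asks what benign tumours of this kind share apart from untreated skin. Of the 58 genes, 50 were higher in the papillomas on average, with a median difference of 0.47, against -0.017 for all probes. At an adjusted p under 0.05, 7 members were called and all 7 were higher (12.1% of the members, against 3.94% of all probes called higher and 7.55% called in either direction). They were Rpl41, Rpl27a, Rpl24 and Rpl7a of the large subunit and Rps2, Rps3a1 and Rps13 of the small. At an unadjusted p under 0.05, 18 members were higher (31.0%) and none lower, against 11.5% of all probes higher.

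Rpl41, a peptide of the intersubunit face and the smallest ribosomal protein, ran in normal skin from -0.86 over -0.52 to 0.20 and in low-risk papillomas from -0.21 over 0.60 to 1.52. It was higher by 1.20 ± 0.21 (SE; 2.30-fold, limma adjusted p = 0.0008), and 8 of 9 papillomas lay above the highest skin. The 1 exception, at -0.21, fell among the skins, so the groups overlapped.

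Rpl27a, a large subunit protein, ran in normal skin from -0.67 over -0.34 to 0.73 and in low-risk papillomas from 0.07 over 1.30 to 2.11. The difference was 1.18 ± 0.27 (2.26-fold, limma adjusted p = 0.0075), with 6 of 9 papillomas above every skin. The 2 high skins were those of sets C and D, and the 4 negative ones those of set A.

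Rps2, which lies where mRNA enters the small subunit, ran from -0.45 over 0.05 to 0.32 in the skins and from 0.44 over 1.01 to 1.97 in the papillomas. It was higher by 1.07 ± 0.26 (2.09-fold, limma adjusted p = 0.0120) and was the single member whose groups did not overlap. The share of all probes without overlap was not counted, so this cannot be set against the array as a whole. Rpl24, a late-joining large subunit protein whose loss in mice gives the belly spot and tail trait, ran from -0.04 to 0.55 in 5 skins and from 0.49 to 1.75 in 7 papillomas. Its difference was 0.90 ± 0.23 (1.87-fold, limma adjusted p = 0.0155), and 6 of 7 papillomas were above the highest skin. Rps3a1 (1.13 ± 0.35, adjusted p = 0.0439) and Rpl7a (1.12 ± 0.34, adjusted p = 0.0381) passed the limma test with overlapping groups. Rps13 just passed it (0.76 ± 0.24, adjusted p = 0.0499955).

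With the array set as a block none of these 7 passed by limma. At an unadjusted p under 0.05 were 5 members and 1244 of all 18904 probes. The family's median difference was then 0.38 (49 of 58 positive), and the block left 7 of all 18904 probes called. It was 0.25 after scaling the arrays to one spread (40 positive), 0.21 after quantile normalization (38 positive) and 0.23 with the range of the database numbers as a block (43 positive). With the array set as a block Rpl41 kept 1.10, Rpl24 1.01, Rps2 0.95 and Rpl27a 0.87. Within set D, which held 3 low-risk papillomas and 1 normal skin, the members' median difference was 0.077 and 32 of 53 were positive. Without normal skin 1 and carcinoma 6, the near-identical pair, 11 members were called, where 8.20% of all probes were called. The count was 12 without low-risk papilloma 6, 11 without normal skin 1, 3 without normal skin 5, and 4 without normal skin 3, 4 or 6 or low-risk papilloma 4, 5, 7 or 8. With the replicate block, that is, samples joined by replicate number, it was 3, where 5.09% of all probes were called. For the fits without 1 replicate the shares of all probes called are not given here. Those changes in count therefore cannot be read as particular to the members.

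High-risk papillomas against normal skin asks the same of lesions at higher labelled risk. Of the 58 genes, 57 were higher in the papillomas, with a median difference of 0.73 against -0.0043 for all probes. The exception lay at -0.041. At an adjusted p under 0.05, 8 members were called, all higher (13.8% of the members, against 2.57% of all probes called higher and 5.01% in either direction). They were Rpl41, Rpl39, Rpl27a, Rpl24, Rpl14, Rpl11 and Rpl9 of the large subunit and Rps13 of the small; Rpl14 and Rpl9 are named because they were called, after their values were seen. At an unadjusted p under 0.05, 31 members were higher (53.4%) and none lower, against 10.3% of all probes higher. The normal skins are the same 6 as above, so the 2 comparisons are not independent. Rpl41, Rpl27a, Rpl24 and Rps13, 4 genes, were called in both.

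Rpl39, a short protein lining the peptide exit tunnel, ran in normal skin from -0.36 over 0.30 to 1.37 and in high-risk papillomas from 0.46 over 1.60 to 2.46. It was higher by 1.42 ± 0.32 (2.67-fold, limma adjusted p = 0.0101), with 7 of 10 tumours above the highest skin. That skin was normal skin 1, and the other 5 skins were at 0.36 or below.

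Rps13, which helps to bridge the subunits, ran in normal skin from -0.30 over -0.06 to 0.67 and in the 8 high-risk papillomas that measured it from 0.58 over 1.23 to 1.99. The difference was 1.16 ± 0.24 (2.23-fold, limma adjusted p = 0.0060), and 6 of 8 papillomas lay above every skin. Rpl41 ran from 0.02 over 0.51 to 0.83 in high-risk papillomas, all but 1 above the highest skin, and was higher by 0.97 ± 0.21 (1.96-fold, limma adjusted p = 0.0060). Rpl27a was higher by 1.03 ± 0.27 (2.05-fold, limma adjusted p = 0.0243), with 8 of 9 papillomas above the highest skin.

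Rpl11, the Mdm2-binding partner of Rpl5, ran from 0.23 to 1.17 in 5 skins and from 0.64 to 2.90 in 9 high-risk papillomas, higher by 1.14 ± 0.33 (2.20-fold, limma adjusted p = 0.0428). Its partner Rpl5 was 0.56 ± 0.28 higher and was not called (limma adjusted p = 0.27). Rpl9 was the called member without overlap: its 9 papillomas, at 0.96 to 2.77, all lay above its 5 skins, at 0.35 to 0.68 (1.01 ± 0.30, limma adjusted p = 0.0467). Rpl3, not called, did not overlap either (limma adjusted p = 0.18). The share of all probes without overlap was not counted here either. Rpl24 (0.76 ± 0.22, limma adjusted p = 0.0391) and Rpl14 (0.87 ± 0.25, adjusted p = 0.0404) overlapped. Several members just missed the call, Rps3a1 at 1.13 ± 0.34 (limma adjusted p = 0.0501) and Rps28 at 0.98 ± 0.30 (0.0511) among them.

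**Figure D3:**
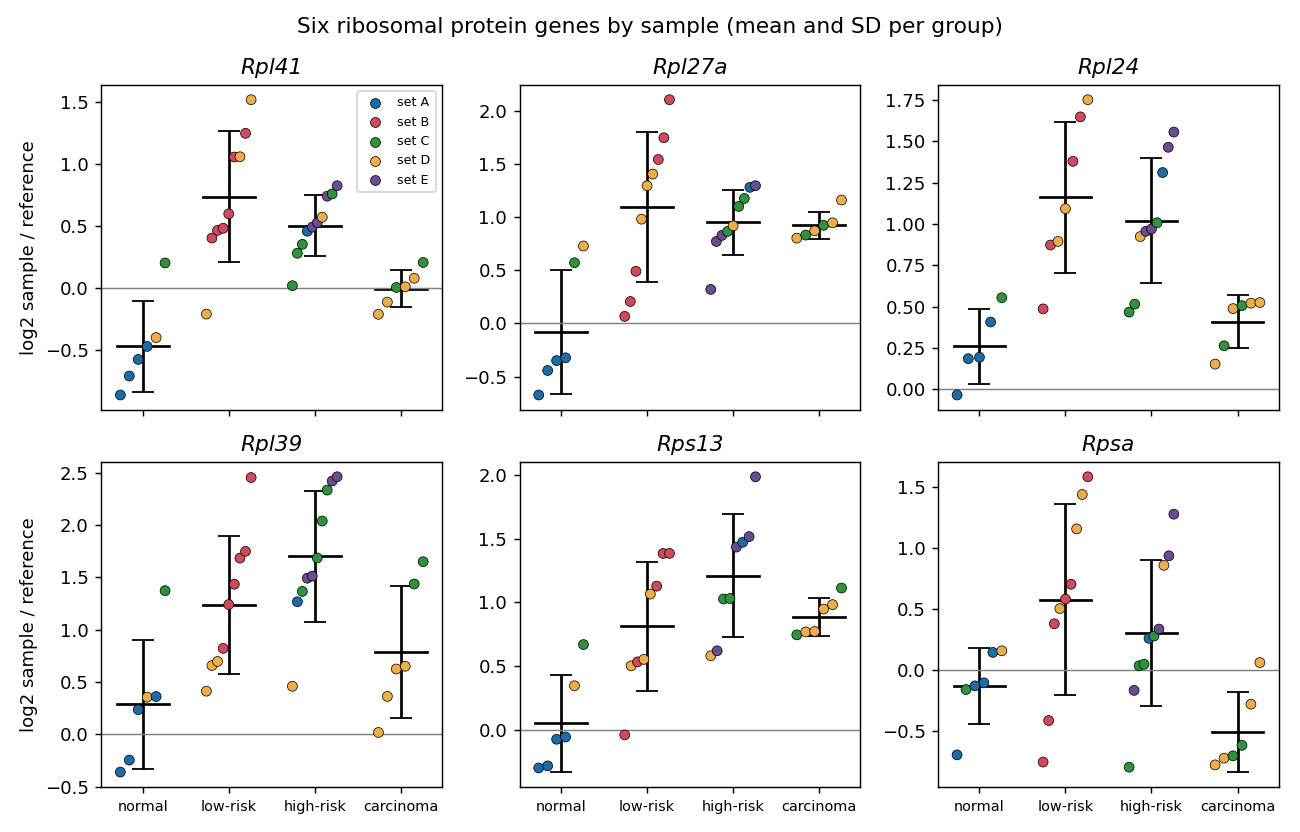
Log2 ratio to the reference of Rpl41, Rpl27a, Rpl24, Rpl39, Rps13 and Rpsa in each replicate (points coloured by array set) with the group mean and SD (bars). In the first 5 genes the highest normal skin is the one of set C or D, and in Rpsa 5 of the 6 carcinomas lie below 0.

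With the set as a block none of the 8 was called by limma. At an unadjusted p under 0.05 were 11 members and 2285 of all 18904 probes. The median difference fell to 0.34, with 47 of 58 genes positive. All probes called fell from 948 to 42. Within set A, high-risk papilloma 10 exceeded the 4 skins by a median of 1.00. In set C the 4 papillomas and normal skin 1 differed by -0.035, and in set D the papilloma and the skin by 0.13. The count of called members was 14 without the near-identical pair, where 7.32% of all probes were called. It was 3 without normal skin 3, 4, 5 or 6, 4 without high-risk papilloma 2, 3, 4 or 10, and 5 without high-risk papilloma 1 or normal skin 2. It was 14 without normal skin 1 or high-risk papilloma 6, and 13 without high-risk papilloma 5 or 7 or low-risk papilloma 9. The shares of all probes called in these fits without 1 replicate are not given here either. Skeletal muscle markers, 9 of 12 measured, were at -0.23 to 1.77 in the skins, -0.95 to 0.46 in low-risk and -0.53 to 0.72 in high-risk papillomas, so these markers moved with both papilloma contrasts, and their part in the result was not tested.

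Carcinomas against normal skin gave no member an adjusted p under 0.05 (limma), against 1.16% of all probes. Of the members 39 of 58 were higher, with a median difference of 0.16, and 4 were higher at an unadjusted p under 0.05 (6.90% of the members, against 5.38% of all probes higher). These 4 were Rpl27a (1.01 ± 0.30, limma adjusted p = 0.09), Rps13 (0.84 ± 0.26, adjusted p = 0.12), Rpl7a (0.83 ± 0.37, adjusted p = 0.36) and Rpl28 (0.80 ± 0.36, adjusted p = 0.37). In Rpl27a the 6 carcinomas, at 0.80 to 1.16, were tightly grouped and all lay above the highest skin at 0.73. The same held for Rps13, at 0.75 to 1.11 above 0.67, and for Rpl7a, at 0.42 to 0.85 above 0.36. It also held for Rpl9, outside these 4, at 0.81 to 1.65 above 0.68 (limma adjusted p = 0.49). How many of all probes separated in this way was not counted. After scaling the arrays to one spread, or quantile normalization, 2 members passed, Rpl27a and Rps13. The calls over all probes rose as well, to 3.78% after scaling and 4.71% after quantile normalization. The family's median turned to -0.20 within set D (17 of 53 positive) and to -0.19 with the range of the database numbers as a block (15 of 58 positive). Within set C it was -0.086 (22 of 51 positive), where the single skin is the near-identical array of carcinoma 6, 1 of the 2 carcinomas there.

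**Figure D4:**
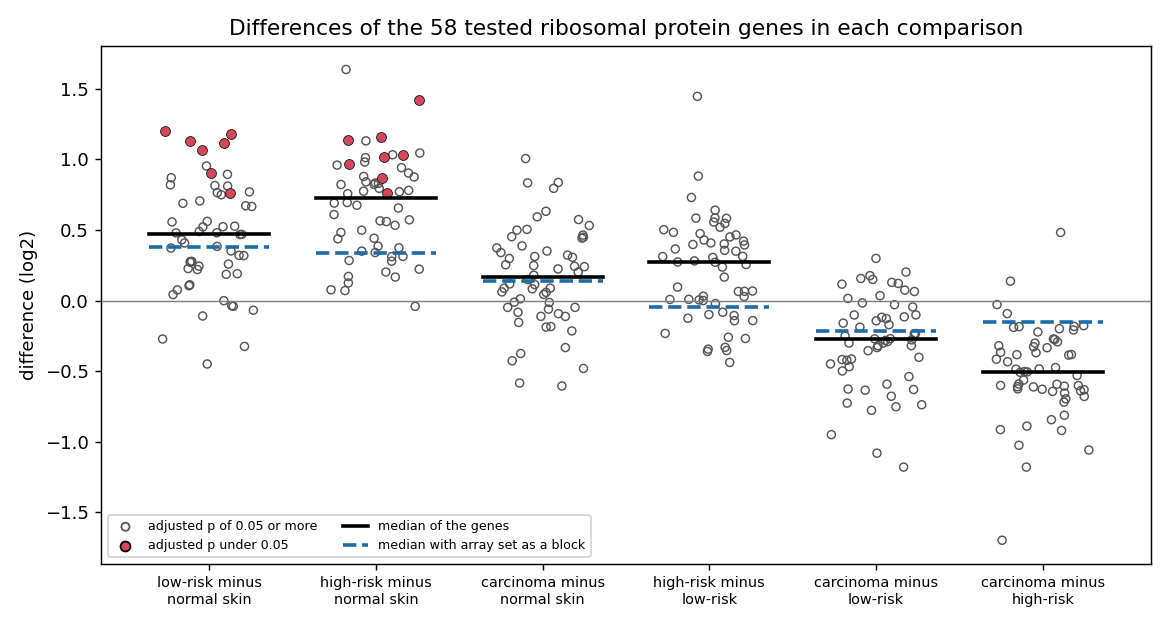
Log2 difference of each of the 58 tested ribosomal protein genes in the 6 comparisons (circles; filled where the limma adjusted p is under 0.05), with the median of the genes (solid bar) and the median when the array set is a block in the fit (dashed bar). Filled circles appear in both papilloma comparisons with normal skin, 7 and 8 of them, and the solid bars stand at 0.47 and 0.73 there.

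High-risk against low-risk papillomas compares the lesions by their labelled risk. No member was called (limma; 0.667% of all probes were). On average 42 of 58 were higher in the high-risk tumours, with a median difference of 0.27, and 7 were higher at an unadjusted p under 0.05 (12.1% of the members, against 8.8% of all probes higher). The leading gene was Rps20, a small subunit protein that binds Mdm2, higher by 0.88 ± 0.31 (limma adjusted p = 0.14). It ran from -0.34 over 0.84 to 1.77 in low-risk and from 0.72 over 1.44 to 3.27 in high-risk papillomas, and 4 of 10 high-risk papillomas lay above every low-risk one. Rpl11 (0.73 ± 0.28), Rpl29, a large subunit protein whose loss slows growth in mice (0.59 ± 0.23), and Rpl35a (0.64 ± 0.26) came next, each with a limma adjusted p of 0.18 to 0.19.

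The size and the sign of this difference depended on the fit. After scaling the arrays to one spread the median was 0.48 with 50 of 58 genes positive. After quantile normalization it was 0.48 with 51 positive and 1 called, where 0.344% of all probes were called. With the array set as a block the median difference was -0.042 with 24 of 58 positive, within set D -0.013, and with array weights -0.083. Set E held high-risk papillomas only and set B low-risk ones only, so for those arrays the set and the group cannot be told apart. Rpl38, which tunes the translation of Hox mRNAs in the embryo, was 0.52 ± 0.26 higher (limma adjusted p = 0.29), and 6 of 10 high-risk papillomas lay above the highest low-risk one at 1.20.

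Carcinomas against low-risk papillomas had no called member (limma), against 1.12% of all probes. Of the members 46 of 58 were lower in the carcinomas, with a median difference of -0.27, and 10 were lower at an unadjusted p under 0.05 (17.2%, against 7.95% of all probes lower). The leading genes were Rpsa (-1.08 ± 0.31), Rpl41 (-0.74 ± 0.21), Rpl24 (-0.75 ± 0.22) and Rps3a1 (-1.18 ± 0.35), with limma adjusted p-values of 0.07 to 0.08. Rpsa ran from -0.76 over 0.58 to 1.58 in low-risk papillomas and from -0.78 over -0.66 to 0.06 in carcinomas, so the carcinomas filled the low end of the papillomas' range. Rpl24 lay at 0.15 to 0.53 in carcinomas and 0.49 to 1.75 in low-risk papillomas.

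Scaling decided the sign here. With the arrays scaled to one spread the median member was 0.22 higher in the carcinomas, and with quantile normalization 0.28 higher. The deposited SD had a median of 1.39 on low-risk arrays and 0.88 on carcinoma arrays. Within set D, where 4 carcinomas met 3 low-risk papillomas, the median was -0.28 and 8 of 58 genes were positive. Without low-risk papilloma 6, 2 members were called, and without low-risk papilloma 2 or 9, 1. The shares of all probes called in those fits are not given here.

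Carcinomas against high-risk papillomas had no called member either (limma; 0.0423% of all probes, 8 in number, were called). Of the members 56 of 58 were lower in the carcinomas, with a median difference of -0.50 against -0.010 for all probes, and 19 were lower at an unadjusted p under 0.05 (32.8%, against 5.79% of all probes lower). All 20 small subunit genes were lower, with a median of -0.59, and 36 of 38 large subunit genes, with a median of -0.44. Rps3a1, a small subunit protein at the mRNA exit, had the smallest p. It ran from 0.73 over 1.32 to 2.96 in high-risk papillomas and from -0.37 over 0.37 to 0.79 in carcinomas, with 8 of 10 papillomas above every carcinoma and a difference of -1.18 ± 0.34 (limma adjusted p = 0.21).

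Rps28 (-0.92 ± 0.30), Rps20 (-1.02 ± 0.34) and Rpl24 (-0.61 ± 0.21) followed, with limma adjusted p-values of 0.26, 0.28 and 0.29. With the set as a block the median difference was -0.15, and 12 of 58 genes were positive. After scaling the arrays to one spread it was -0.33 (13 positive), and after quantile normalization -0.29 (16 positive). At an unadjusted p under 0.05 by limma were 10 members in each, beside 2799 and 2733 of all 18904 probes. In set C the 2 carcinomas lay 0.11 above the 4 papillomas, and in set D the 4 carcinomas 0.26 below the single papilloma (-0.26). Of the 2 carcinomas in set C, carcinoma 6 (members' median 1.17) is of the near-identical pair, and carcinoma 5 was at 0.79. Macrophage markers, 9 of 12 measured, were at -0.58 to 0.93 in carcinomas and -1.61 to -0.30 in high-risk papillomas, and fibroblast markers, 12 of 12, at -0.82 to 0.32 and -1.90 to -0.19. Both lists and the keratinocyte list moved with the carcinoma contrasts, and their part in the members' values was not tested.

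The medians of both subunits lay near each other. Against normal skin the median difference in high-risk papillomas was 0.68 over 38 large and 0.81 over 20 small subunit genes, and in low-risk papillomas 0.40 and 0.48. The 3 stalk genes, tested as part of the large subunit, differed in high-risk papillomas by 0.28 for Rplp1, 0.31 for Rplp0 and 0.39 for Rplp2. In low-risk papillomas Rplp0 differed by 0.75 ± 0.26 (limma adjusted p = 0.08), Rplp1 by 0.27 and Rplp2 by -0.036, and none was called in any comparison. Rps6 differed by 0.23 ± 0.28 in low-risk and 0.50 ± 0.28 in high-risk papillomas against skin (limma adjusted p = 0.68 and 0.33), and Rps4x by 0.32 ± 0.25 and 0.35 ± 0.24 (0.47 and 0.45). Rps19, the gene most often mutated in Diamond-Blackfan anaemia, was 0.79 ± 0.49 higher in high-risk papillomas (limma adjusted p = 0.39). Rpl10, which joins the large subunit last, was 0.82 ± 0.28 higher in low-risk papillomas (limma adjusted p = 0.07), and Rpl13a, which can leave the ribosome to silence inflammatory mRNAs, 0.87 ± 0.29 (0.06).

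For 4 genes the first design carried 2 probes. The probes of Rpl35a tracked each other (r = 0.81 over 30 replicates) and had nearly the same medians. Those of Rplp0 (r = 0.20), Rpsa (0.31) and Rps18 (-0.37) did not track, so the values of these 3 genes depend on the probe chosen. The probe with the most values was used. For Rpsa both had 31 values, so the first listed was used, and the other one was lower, at a median of -0.78. RefSeq lists 324 pseudogenes with a ribosomal protein symbol, and a probe may read transcripts of such copies as well as the gene named, which the files do not resolve.

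Calls in the wider translation machinery were counted over lists drawn from textbook knowledge. They are to be read beside the shares of all probes called higher, 3.94% in low-risk and 2.57% in high-risk papillomas, and beside the 7 and 42 probes in all that were called with the array set as a block. Of 18 tested genes for elongation factors and other TOP mRNAs, 3 were called higher in low-risk and 2 in high-risk papillomas against normal skin, with medians of 0.58 and 0.49. Eef1d, an exchange factor of elongation factor 1, was called in both, at 1.05 ± 0.22 and 1.13 ± 0.22 (limma adjusted p = 0.0042 and 0.0039). Fau, whose product is cleaved to ribosomal protein S30 and which the symbol rule does not take, was 1.15 ± 0.30 higher in high-risk papillomas (limma adjusted p = 0.0257). Of 21 initiation factors, 1 and 2 were called higher, and Eif4a1, the helicase of the cap complex, was called in both, at 0.92 ± 0.23 and 0.85 ± 0.22 (limma adjusted p = 0.0119 and 0.0242).

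Ribosome assembly genes gave 3 of 45 called higher in low-risk papillomas and 6 higher and 1 lower in high-risk papillomas, with medians of 0.31 and 0.32. Nhp2, a core protein of the particles that modify ribosomal RNA, was higher by 1.32 ± 0.26 and 1.23 ± 0.26 (limma adjusted p = 0.0027 and 0.0068). Nip7, needed for rRNA processing, was higher by 0.98 ± 0.24 and 0.98 ± 0.23 (limma adjusted p = 0.0104 and 0.0106). Nucleolin, Ncl, was 1.31 ± 0.32 higher in high-risk papillomas (limma adjusted p = 0.0156), and Sbds, which helps to release Eif6 from the large subunit, 0.82 ± 0.24 lower (difference -0.82, adjusted p = 0.0409). Mitochondrial ribosomal proteins, which serve a separate ribosome, had 3 of 66 called higher in low-risk and 6 in high-risk papillomas, with medians of 0.15 and 0.33. Mrpl42 was higher by 1.11 ± 0.20 in low-risk papillomas (limma adjusted p = 0.0013) and by 0.70 ± 0.20 in high-risk ones (0.0416). In carcinomas against normal skin none of these 4 lists had a called gene by limma, with 4, 2, 6 and 5 genes at an unadjusted p under 0.05. Of all probes, 11.3% were at such a p in that comparison.

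Upstream growth genes were mixed, where 7.55% and 5.01% of all probes were called in either direction. Of 15 tested, 2 were called higher in low-risk papillomas, and 1 higher and 2 lower in high-risk ones, with medians of 0.24 and -0.09. Rps6kb2, an S6 kinase, was 2.50 ± 0.56 higher in high-risk papillomas (limma adjusted p = 0.0093). Mycn fell by 2.29 ± 0.51 and Mtor by 1.42 ± 0.40 in the same comparison (limma adjusted p = 0.0091 and 0.0327). In carcinomas against skin Mycn was called as well, at -2.53 ± 0.55 (limma adjusted p = 0.0178). Of 11 genes of p53 and its targets, which respond when free ribosomal proteins hold Mdm2, none was called in the 6 comparisons (limma). In the low-risk and high-risk comparisons with skin 2 each were at an unadjusted p under 0.05, as were 23.4% and 19.7% of all probes.

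In the 10 papillomas labelled unknown, on the second design, the members stood above the array's middle as well. There the 19 skin genes had medians of 3.06 to 4.71 and the 23 genes of internal organs -2.76 to -1.26. The median over the members ran from 0.34 over 1.03 to 1.53 and the percentile from 61.3 over 75.4 to 92.1. Unlabelled papillomas 8 and 3 were lowest, at 0.34 and 0.45, and papilloma 5 highest, at 1.53. The second design was normalized apart, so these levels and those of the labelled groups are given side by side and were not compared. Of the 67 genes on it, 62 had a median above 0, and 57 of the 60 genes on both designs had medians on the same side of 0.

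The 3 genes on opposite sides were Rps4x, Rpl3 and Rplp2. Rps4x was the lowest gene of the second design, with a median of -0.98 (-2.51 to 0.85 over 9 arrays), and near the top of the first, at 1.87. Rpl22 was below 0 on both, at -0.36 and -0.32. Of the genes too seldom measured to be tested, Rps3 had a median of 1.41 and Rps12 of 1.39 over the 10 unlabelled papillomas. Rpl13a had 23 probes on the second design, and their medians ran from 0.05 to 2.34 with a median of 1.76, so the level of 1 gene depended on the probe. Of the genes that differed from normal skin, Rpl41 ran from -0.95 over 0.31 to 2.50 in these tumours, Rps13 from -0.03 over 0.86 to 1.23, and Rpl24 from 0.25 over 0.68 to 1.44.

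**Figure D5:**
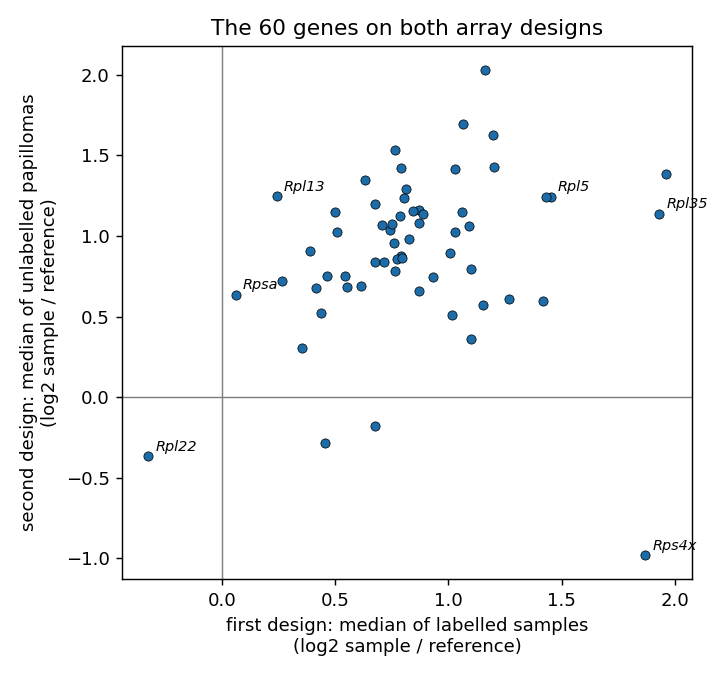
Median log2 ratio to the reference of the 60 genes on both array designs, in the labelled samples of the first design (horizontal) and the 10 unlabelled papillomas of the second (vertical). Most points lie above 0 on both axes, Rpl22 lies below 0 on both, and Rps4x lies at 1.87 on the first and -0.98 on the second.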

How the data were processed

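RNA from 42 samples was hybridised against a universal reference on 2-colour oligonucleotide arrays. The deposited values are log2 ratios made by the authors, with spot filters, normalization and log base not given in the sources used here. The largest absolute deposited value was 15.02, which base 2 fits within a scanner's range. Per the labels the sample was in Cy3 on all but 1 labelled array. Every array but that one was negated, and each was centred on its median. Gene names came from the platform annotation, in which 1 symbol stood beside 16076 of 21997 probes of the first design, several beside 288 and none beside 5633. On the second design these numbers were 26926, 203 and 9795. Empty values made up 2.29% to 26.0% of a labelled array, and the number of arrays limits the precision.

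Replicates were compared with limma 3.58.1 (R 4.3.3) in 1 fit of the 4 labelled groups. The fit used the probe with most values per gene, measured in at least 3 replicates of each group and 70% of all, and an adjusted p under 0.05 (Benjamini-Hochberg). Among probes with equally many values the first listed was used. Empty values were not imputed. Medians and counts were made with Python 3.11.15 (numpy 2.4.6, pandas 2.3.3) and drawn with matplotlib 3.10.9. The fit was tested on simulated data. Unlabelled papillomas entered no test. Alternatives were other scalings and filters, the swapped array, the near-identical pair, array set, database number range, shared tumour code and replicate number as blocks, array weights, and each replicate left out.

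Genes named are, per comparison, up to 4 members with the smallest p, 18 members fixed by role, and the 3 highest and lowest by median and by SD. Of other lists up to 3 genes with the smallest p per comparison were named. Rpl3, Rpl9, Rpl14, Rpl15, Rpl21, Rps12 and Rps18 fall outside this rule and were named after their values were seen. Rpl10a, Rpl37a and Rps10 fall outside it too and were named because they were not tested. The members, lists and motifs were chosen with earlier results of these data known. Rps27a was on neither design. Same-numbered replicates did not deviate together (median r -0.02 over 37 pairs, 0.01 over 317 pairs with different numbers), so the numbers do not pair the samples.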

Additional observations from a re-analysis of the deposited data

Results flagged for a closer look

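In 6 of the 128 groups of 4 to 10 values checked, 1 sample stood apart from the rest of its group by Dixon's test, where chance gives about 1 in 20 groups. Rpl37 was 6.74 in low-risk papilloma 1, measured on its Cy3 array alone, with the next at 2.02, and 3.47 in high-risk papilloma 5, with the next at 1.33. Rpl12 was 7.80 in high-risk papilloma 10, with the next at 1.47. Rpl11 was 1.17 in normal skin 1, against 0.43 for the next skin, and this is the sample whose array was nearly the same as that of carcinoma 6. Rpsa was -0.70 in normal skin 3, with the next lowest at -0.16. Rpl13 was -0.37 in carcinoma 2, with the next lowest at 0.09.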

How the results depend on the processing

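Genes called at an adjusted p under 0.05 (limma) numbered 0 of 58 in every comparison between tumours and in carcinomas against normal skin, 7 in low-risk and 8 in high-risk papillomas against normal skin. Scaling the arrays to one spread gave 3, 15 and, in carcinomas against skin, 2, where 7.50%, 8.32% and 3.78% of all probes were called. Quantile normalization gave 4, 14 and 2, where 9.26%, 9.49% and 4.71% of all probes were called. It also gave 1 in high-risk against low-risk papillomas, where 0.344% were called. Uncentred values gave 4 in low-risk papillomas against skin, and probes measured in every replicate gave 3 there and 2 in carcinomas against low-risk papillomas. Leaving out the swapped array gave 3 and 4 in low-risk and high-risk papillomas against skin, counting it as its own replicate 4 and 3, and leaving out the near-identical pair 11 and 14. Without the swapped array 5.36% and 3.83% of all probes were called, and without the pair 8.20% and 7.32%. The array set as a block gave 0 and 0, and the database number range as a block 4 and 0, with 3 in carcinomas against low-risk papillomas. With the number range as a block the shares of all probes called were 6.84%, 0.439% and 0.968%. Fitting only the 2 groups compared gave 2 in low-risk papillomas and 3 in carcinomas against skin. For the uncentred, every-replicate, own-replicate and 2-group fits the shares of all probes called are not given here. Those counts therefore cannot be set against the array as a whole. Array weights gave 21, 23 and 7 in papillomas of low and of high risk and in carcinomas against skin, 3 in high-risk and 6 in carcinomas against low-risk papillomas, and 3 in carcinomas against high-risk papillomas, but also lifted the calls over all probes to between 1.97% and 21.95%. With the replicate block the count was 3 in low-risk and 8 in high-risk papillomas against skin, with medians of 0.54 and 0.77. Of all probes, 5.09% and 4.49% were called there. The replicate block changed the number of members called in no other comparison. Leaving out 1 replicate at a time gave 3 to 12 in low-risk and 3 to 14 in high-risk papillomas against skin, 0 to 2 in carcinomas against skin (2 without normal skin 1) and 0 to 2 in carcinomas against low-risk papillomas. The shares of all probes called are not given for these fits, so the ranges cannot be read as particular to the members.

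The median difference in high-risk against low-risk papillomas (0.27) became -0.042 when the array set was a block, -0.083 with array weights and -0.013 within set D, but 0.48 after scaling and 0.48 after quantile normalization. Under that block Rpl11, Rpl35a and Rps20 became -0.29, -0.21 and -0.0027 there. In carcinomas against low-risk papillomas (-0.27) it became 0.22 after scaling and 0.28 after quantile normalization. In carcinomas against high-risk papillomas (-0.50) it was -0.33 after scaling, -0.29 after quantile normalization and -0.15 with the set as a block. Within set C, where 1 carcinoma is of the near-identical pair, it was 0.11. In low-risk papillomas against skin (0.47) it was 0.077 within set D, 0.25 after scaling, 0.21 after quantile normalization and 0.23 with the number range as a block. In high-risk papillomas against skin (0.73) it was 0.34 with the set and 0.25 with the number range as a block, 0.13 within set D and -0.035 within set C. In carcinomas against skin (0.16) it was -0.19 with the number range as a block, -0.086 within set C, where the skin is 1 of the near-identical pair, and -0.20 within set D, and Rpl7a became -0.033 with the number range as a block. Leaving out 1 replicate turned no median, and in high-risk against low-risk papillomas it ran from 0.14 to 0.35. The causes were not tested. Of the other values of the named genes, 1083 kept direction and call, 27 lost and 27 gained the call. Signal over background is not in the values used here, so which ratios rest on dim spots could not be examined.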
